A study of Homo sapiens with 6 samples.

Results

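The clustered protocadherin genes are 3 neighbouring families of cell surface adhesion genes on the long arm of human chromosome 5, named alpha (PCDHA), beta (PCDHB) and gamma (PCDHG). Members were taken as every row of the count table whose symbol begins with PCDHA, PCDHB or PCDHG followed by a cluster number, with pseudogenes left out. This gave 53 genes of 58870 in the table. There were 15 alpha, 16 beta and 22 gamma genes, the gamma genes being 12 of type A, 7 of type B and 3 of type C. In GRCh38 all of them lie on the plus strand of chromosome 5, from 140786136, the start of PCDHA1, to 141512977, the end of PCDHGC3.

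Clustered protocadherins are cadherin-like proteins that bind an identical protein on a neighbouring cell, and neurons use different combinations of them to tell their own branches from those of other neurons. Each alpha and gamma gene has its own promoter and its own first exon, which encodes the extracellular, transmembrane and start of the cytoplasmic part, and this exon is spliced to constant exons shared by the whole cluster, while each beta gene stands alone. Promoter choice is random in many neurons, depends on CTCF and cohesin looping and on DNA methylation, and is passed on to daughter cells, so that the set of promoters in use can mark a clone. The C-type genes, including PCDHGC3, are exceptions that are used broadly rather than by random choice.

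The cells were HEK-293T, an immortalized human embryonic kidney line, and total RNA depleted of ribosomal RNA was sequenced from 3 libraries of unedited cells (WT) and 3 of cells that had lost THUMPD1 through CRISPR-Cas9 editing (THUMPD1 KO). The THUMPD1 protein is the adapter with which NAT10 acetylates cytidine in transfer RNA. Both groups were grown in the same medium with no further treatment. The study's methods describe single-cell sorting of the knockout cells and no matching step for the WT cells, so loss of THUMPD1 and descent from a sorted cell cannot be told apart in any difference below. The labels call the libraries replicates without saying whether they were separate cultures, so p-values measure the spread between these libraries, which may be technical.

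The libraries held 32225646 to 44099898 expected counts, the estimated number of read pairs that RSEM assigned to each gene, and a level in CPM is a count per 1000000 of these totals. The THUMPD1 transcript fell from 80.9 ± 3.65 CPM in WT to 11.04 ± 0.918 CPM in THUMPD1 KO (SD, n = 3 each, log2 difference -2.87, limma-voom adjusted p = 3.17e-08). Of 7 kidney progenitor or epithelial markers, 5 were at 1 CPM or more in every library. These were PAX2 (1.84 to 4.63 CPM), LHX1 (1.14 to 2.55 CPM) and the epithelial genes KRT8, KRT18 and CDH1. PAX8 had at most 1 count in any library. None of 6 markers of mature nephron, UMOD and AQP2 among them, had more than 3 counts in any library. Of 4 fibroblast markers, 3 were at 1 CPM or more in every library, so these lists did not single out a kidney origin. Of 7 neuronal markers, 3 were at 1 CPM or more in every library. The summed level of the 7 was 85.0 to 107 CPM in WT and 73.9 to 87.9 CPM in THUMPD1 KO, but these 3 moved in opposite directions. NEFM fell from 35.3 ± 8.47 CPM in WT to 5.33 ± 1.20 in THUMPD1 KO. NEFL rose from 55.5 ± 2.92 to 68.9 ± 6.2 CPM and TUBB3 from 3.22 ± 0.210 to 5.13 ± 0.600 CPM. In none of the 3 did the genotypes overlap. ELAVL3, ELAVL4 and STMN2 had at most 3 counts in every library. The part of the neuronal markers in the protocadherin values was not tested.

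The first sequences shown are those that every gamma transcript shares, since they decide how well the genes can be told apart. All 22 gamma genes end in the same 3 constant exons in GENCODE release 44, of which the first has 59 bases and the second 89, both wholly coding.
gamma constant exon 1, chr5:141494807-141494865, plus strand: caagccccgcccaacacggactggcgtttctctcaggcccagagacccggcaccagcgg
gamma constant exon 2, chr5:141505393-141505481, plus strand: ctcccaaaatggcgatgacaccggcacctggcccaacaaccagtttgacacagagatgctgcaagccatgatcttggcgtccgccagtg
The third, of 2029 bases, runs from 141510947 to 141512975. Sequence after the first exon made up 44.85% to 45.93% of each gamma transcript, and a read pair that lies wholly inside it fits all 22 genes equally. RSEM can divide pairs that fit several genes between them. Of the values in the table, 81 of 132 gamma values, each a gene in a library, were not whole numbers within 0.02, while the sum over the 22 genes was whole in 6 of 6 libraries. In the beta genes, which have a single exon each in that annotation, 8 of 96 values were not whole, and in the alpha genes, which share constant exons too, 17 of 90. Levels of single gamma genes are therefore estimates.

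Promoters are shown for the 3 genes that were high enough to be tested, PCDHGC3, PCDHGA11 and PCDHGC4, and for PCDHGB5. The PCDHGB5 promoter was chosen after its values were seen, because its mean CPM fell by the most among the members. The sequences are RefSeq windows on GRCh38.p14 from 250 bases before to 50 after the annotated start. The capitals mark each CGCT on either strand (AGCG where it lies on the minus strand). CGCT is the core of the element that these promoters have in common, but a marked copy need not be part of that element.
PCDHGC3 promoter, chr5:141475716-141476015, plus strand: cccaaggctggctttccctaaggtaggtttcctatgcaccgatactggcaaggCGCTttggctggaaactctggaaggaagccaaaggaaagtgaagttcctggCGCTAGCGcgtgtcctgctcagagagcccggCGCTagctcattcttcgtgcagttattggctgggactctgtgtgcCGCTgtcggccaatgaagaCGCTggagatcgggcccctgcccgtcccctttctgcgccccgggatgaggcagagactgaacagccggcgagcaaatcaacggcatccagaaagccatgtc
PCDHGA11 promoter, chr5:141420801-141421100, plus strand: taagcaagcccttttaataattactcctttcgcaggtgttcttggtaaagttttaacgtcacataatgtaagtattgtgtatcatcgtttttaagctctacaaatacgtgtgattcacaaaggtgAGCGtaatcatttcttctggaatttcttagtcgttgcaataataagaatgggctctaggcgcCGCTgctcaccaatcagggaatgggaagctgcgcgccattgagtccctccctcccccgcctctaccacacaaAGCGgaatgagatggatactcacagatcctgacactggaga
PCDHGC4 promoter, chr5:141484780-141485079, plus strand: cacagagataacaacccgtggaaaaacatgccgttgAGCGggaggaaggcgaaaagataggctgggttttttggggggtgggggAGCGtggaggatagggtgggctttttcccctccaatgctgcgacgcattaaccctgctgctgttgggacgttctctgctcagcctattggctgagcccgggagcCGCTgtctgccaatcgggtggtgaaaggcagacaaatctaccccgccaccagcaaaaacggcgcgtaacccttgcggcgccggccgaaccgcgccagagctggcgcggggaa
PCDHGB5 promoter, chr5:141397697-141397996, plus strand: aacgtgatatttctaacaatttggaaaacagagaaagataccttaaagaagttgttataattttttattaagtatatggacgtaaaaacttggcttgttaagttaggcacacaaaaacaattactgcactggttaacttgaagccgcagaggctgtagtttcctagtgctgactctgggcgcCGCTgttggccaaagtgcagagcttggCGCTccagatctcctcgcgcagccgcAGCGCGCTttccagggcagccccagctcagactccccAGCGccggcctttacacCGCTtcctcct
The PCDHGC3 window held 6 copies of CGCT, 5 of them on the strand of the gene, and the PCDHGB5 window 6, of which 4 were on that strand. PCDHGA11 and PCDHGC4 held 3 copies each, with 1 on the gene's strand. RefSeq windows were matched for 47 of the 53 genes, which gave 52 sequences because some genes have more than one start. CGCT was present on either strand in 51 of these 52 windows (98.08%) and in 70.01% of the 35116 windows of all RefSeq genes. On the strand of the gene it was in 51 of 52 and in 54.33% of all windows. GGNGGCAG, a part of the CTCF motif searched on both strands, was in 1 of 52 windows (1.923%) and in 16.66% of all windows. This is 1 fixed string, so its share does not say whether these promoters hold CTCF sites.

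Aligning the 4 windows on a CGCT of the gene's strand gave a longer run of shared letters, CNNNGNGCCGCTGNNNNCCAA, whose first base lay 78 bases before the start in PCDHGC3, 71 in PCDHGA11, 70 in PCDHGC4 and 76 in PCDHGB5. This pattern was read from the windows after the fact and includes the CGCT core. On the strand of the gene it was found in 10 of the 35116 windows of all genes, and 9 of these 10 belonged to 7 gamma genes: the 4 it was read from, and PCDHGB1, PCDHGA7 and PCDHGB4, which were not used to build it. It was in none of the 13 alpha and 14 beta windows. A match in these letters is a description and not a binding site.

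Most of the clustered protocadherins were silent or nearly so in these cells. PCDHAC2 and PCDHB10 had 0 counts in all 6 libraries, where a count of 0 allows up to 0.0931 CPM in the shallowest library, a limit for counting error only. In all, 19 of the 53 genes, 9 alpha and 10 beta, had at most 3 counts in every library, and 21 had more than 3 in all 6. The median gene, by its mean over the 6 libraries, stood at 0.0868 CPM. Of the 21 genes with more than 3 counts in every library, 20 were gamma genes. Only 6 genes reached 1 CPM in any library, all of them gamma: PCDHGC3, PCDHGA11, PCDHGC4, PCDHGB7, PCDHGA7 and PCDHGB5.

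**Figure D1:**
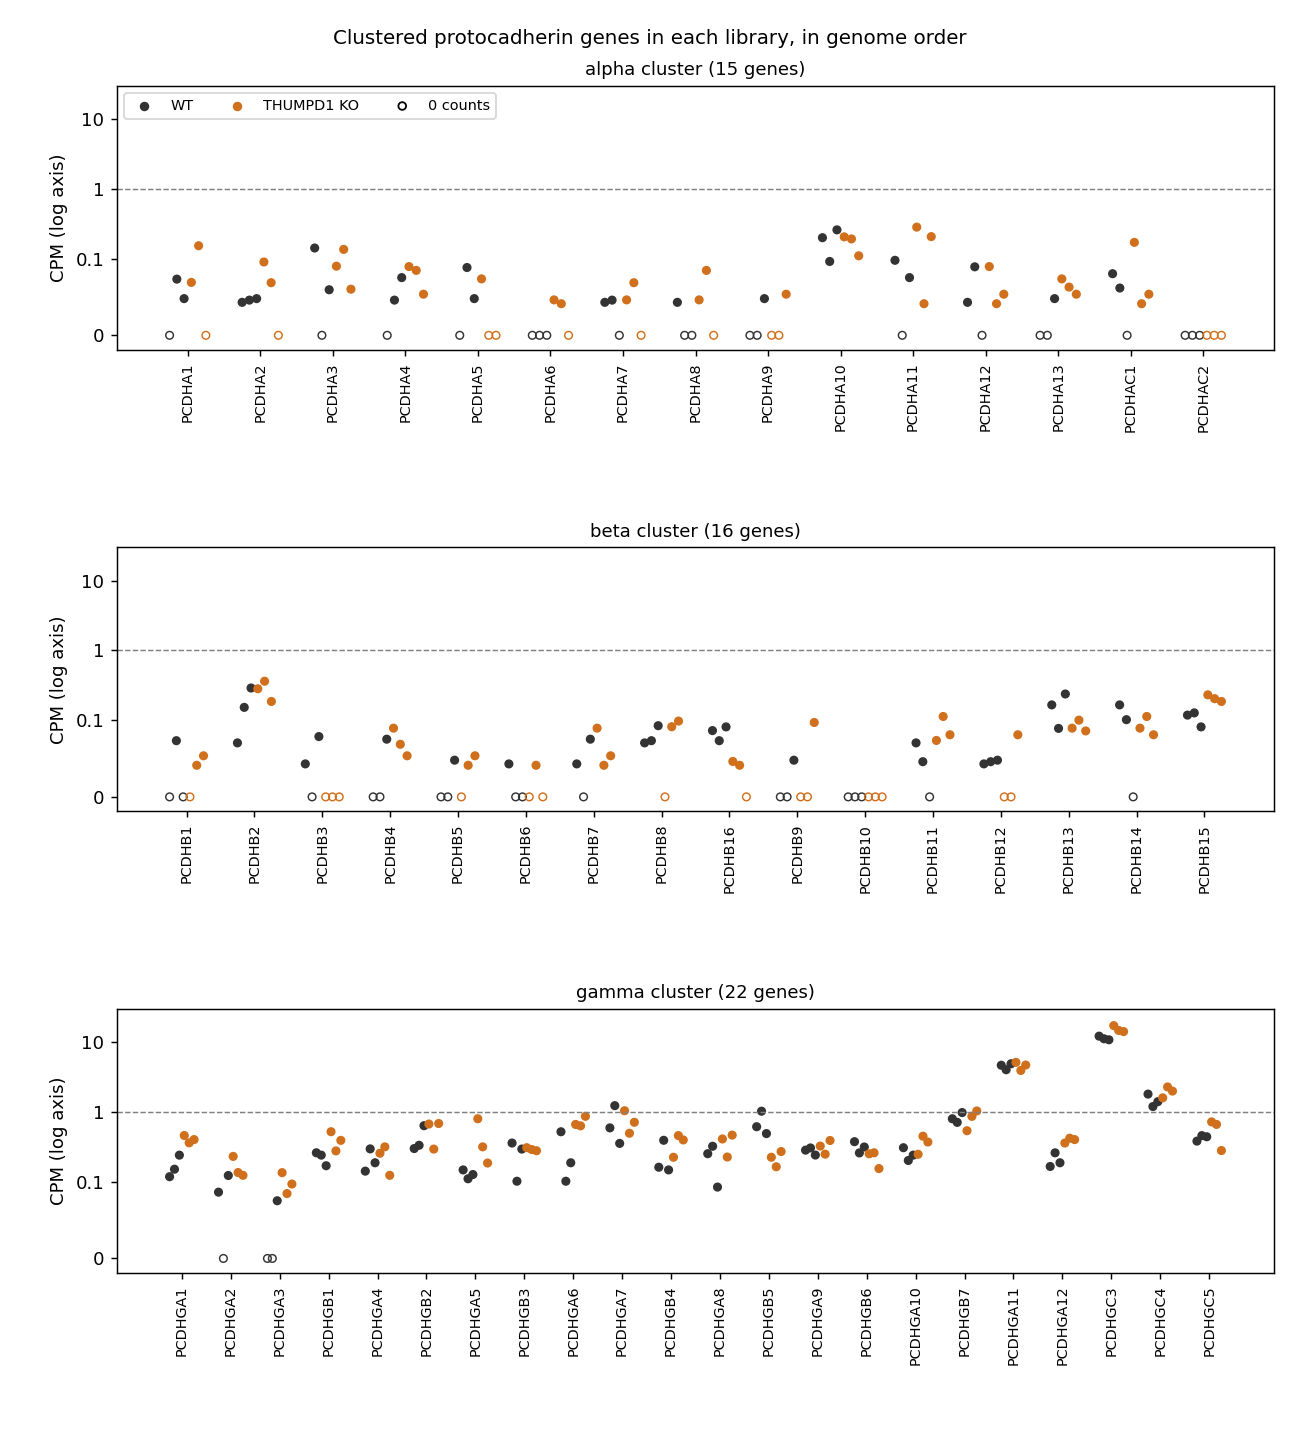
Each point is the level of 1 gene in 1 library in CPM on a log axis, with genes in genome order within each cluster, WT libraries in black and THUMPD1 KO libraries in orange. Open points at the bottom mark 0 counts and the dashed line marks 1 CPM, which no alpha or beta gene reached and 6 gamma genes did.

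Per kilobase of transcript, PCDHGC3 was the highest member in both genotypes, at 2.40 ± 0.150 CPM per kb in WT and 3.24 ± 0.346 in THUMPD1 KO (SD, n = 3). PCDHGA11 followed at 0.950 ± 0.0953 and 0.962 ± 0.128 CPM per kb. PCDHGC4 came next at 0.309 ± 0.0650 and 0.412 ± 0.0727. These 3 neighbours in the order did not overlap within either genotype. Below them, PCDHGB7 at 0.174 ± 0.0290, PCDHGA7 at 0.153 ± 0.0957 and PCDHGB5 at 0.150 ± 0.0592 CPM per kb in WT differed by less than their spread. First exons of PCDHGC3, PCDHGA11 and PCDHGC4 shared no stretch of 100 bases with another member, so reads inside them could be placed.

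PCDHGC3 was the member that passed the test. The WT libraries held 515.13, 439.26 and 404.39 counts of it, against 672.46, 651.84 and 458.09 for THUMPD1 KO. In CPM it stood at 12.2, 11.2 and 10.8 against 17.3, 14.8 and 14.2, so all THUMPD1 KO libraries lay above all WT libraries. The mean rose from 11.43 ± 0.715 to 15.43 ± 1.65 CPM, a ratio of 1.35, with a fitted log2 difference of 0.44 (SE 0.0807; adjusted p = 0.0028 by limma-voom with Benjamini-Hochberg adjustment). It was also called in each alternative fit over the same genes, with adjusted p between 0.000801 and 0.014. Taken alone, an exact two-sided permutation test over 3 against 3 libraries gave p = 0.1, the smallest it can give.

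PCDHGC4 and PCDHGA11 were the only other members at 1 CPM or more in at least 3 libraries, the level required for testing. PCDHGC4, a C-type gene whose loss in people causes a neurodevelopmental disorder, had 1.81, 1.20 and 1.41 CPM in WT and 1.60, 2.29 and 2.00 CPM in THUMPD1 KO. The genotypes overlapped, and the log2 difference of 0.32 (SE 0.19) did not pass (limma-voom adjusted p = 0.241). PCDHGA11 had 4.69, 4.04 and 4.92 CPM in WT and 5.15, 3.95 and 4.72 CPM in THUMPD1 KO. Its libraries were interleaved, with a log2 difference of -0.05 (SE 0.12, limma-voom adjusted p = 0.799). So 1 of the 3 members tested was called, in the upward direction, where 26.7% of the 15088 genes tested were called in either direction and 13.7% were called higher in THUMPD1 KO.

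The remaining 50 genes were below that level, and the test was run over all 31730 genes with a count above 0 to see them. Over these genes 10.1% were called with limma-voom and 15.0% with the quasi-likelihood test of edgeR. In the first of these fits PCDHGC3 (adjusted p = 0.0103) and PCDHGB5 were called. Of the members called there, PCDHGB5 was the one that fell. Its counts were 25.97, 40.31 and 18.33 in WT against 8.75, 7.26 and 8.76 in THUMPD1 KO. Every WT library stood above every THUMPD1 KO library, with means of 0.712 ± 0.281 and 0.221 ± 0.0538 CPM, a ratio of 0.310. The log2 difference was -1.78 (SE 0.406, limma-voom adjusted p = 0.0239), and edgeR gave adjusted p = 3.4e-05. The call was lost with the replicate number as a block (limma-voom adjusted p = 0.0698) and when any 1 of the 6 libraries was left out (0.0514 to 0.197). Windows of 100 bases in its first exon matched PCDHGB4 in 15.85% of positions, the highest share in the gamma cluster. Part of its count could therefore have been divided with PCDHGB4. The means of PCDHGB4 went the other way, from 0.235 ± 0.138 CPM in WT to 0.361 ± 0.122 CPM in THUMPD1 KO, with overlap. The part of this division in the lower PCDHGB5 values was not tested.

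PCDHGA6, PCDHGA5 and PCDHGA1 passed in the edgeR fit of all genes and not in the limma-voom one with quantile normalization, while PCDHGA6 also passed in limma-voom with TMM (adjusted p = 0.0355) or total library sizes (0.0341). PCDHGA6 had 22, 4 and 7 counts in WT and 25.82, 28 and 28 in THUMPD1 KO. Its means were 0.271 ± 0.222 and 0.723 ± 0.127 CPM (edgeR log2 difference 1.33, adjusted p = 0.00126; limma-voom adjusted p = 0.0684). PCDHGA5 had 6.25, 4.34 and 4.75 counts against 31.19, 14 and 6. The last THUMPD1 KO library was close to the WT libraries, and the values were log2 1.73 with adjusted p = 0.00263 in edgeR and adjusted p = 0.194 in limma-voom. PCDHGA1, the first gene of the gamma cluster, had 5, 5.95 and 9 counts against 17.95, 16 and 13. It gave log2 1.22 with adjusted p = 0.0456 in edgeR and adjusted p = 0.0796 in limma-voom. For all 3 genes each THUMPD1 KO library was above each WT library in CPM, but PCDHGA6 in WT replicate 1, at 0.522 CPM, lay nearer to the THUMPD1 KO libraries than to the other WT ones.

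**Figure D2:**
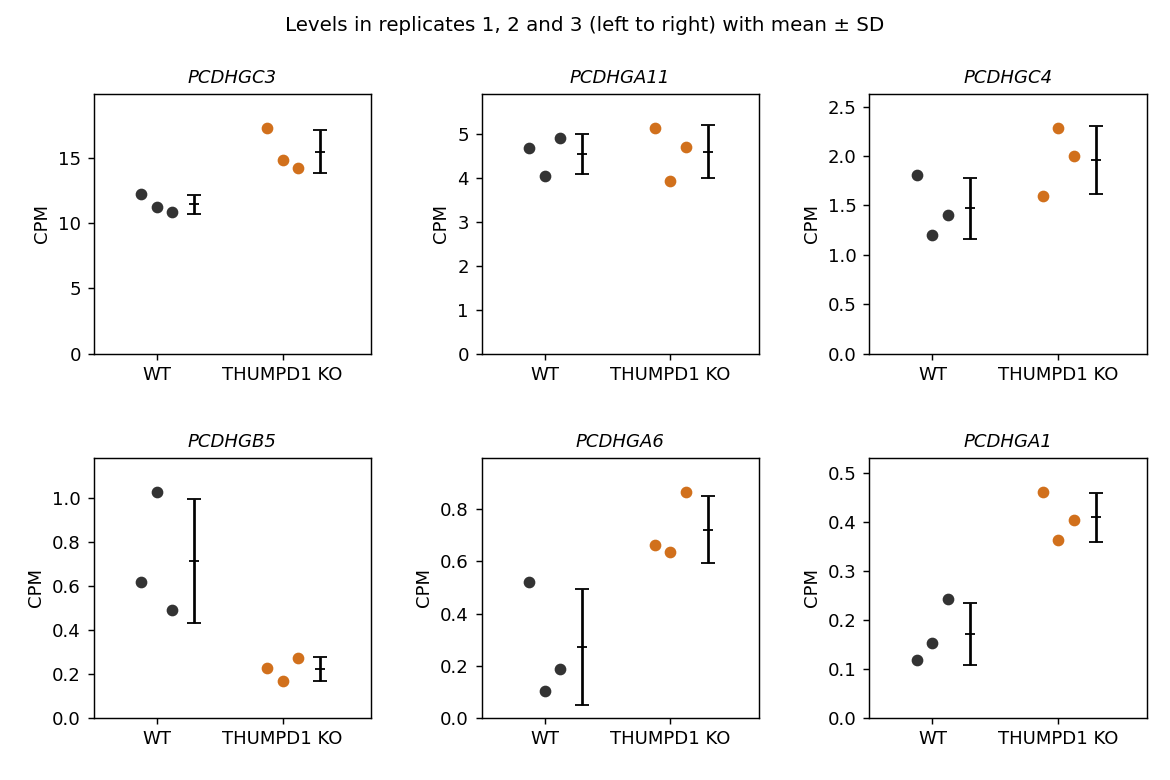
Each panel gives 1 gene, with the level in CPM on a linear axis from 0, points for replicates 1, 2 and 3 of WT (black) and THUMPD1 KO (orange), and the mean with SD beside them. PCDHGC3 is higher in every THUMPD1 KO library, PCDHGA11 and PCDHGC4 overlap, PCDHGB5 is lower in every THUMPD1 KO library, and PCDHGA6 and PCDHGA1 are higher at levels below 1 CPM.

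Over the 51 members with any count, 11 (21.6%) had all THUMPD1 KO libraries above all WT libraries and 2 (3.92%) had them below, where the shares over the 31730 genes with a count were 15.8% and 10.7%. The alpha cluster gave 1 of 14 above and none below. The beta cluster gave 2 of 15 above and 1 below. The gamma cluster gave 8 of 22 above (36.4%) and 1 below. The 8 were PCDHGA1, PCDHGA2, PCDHGA3, PCDHGB1, PCDHGA5, PCDHGA6, PCDHGA12 and PCDHGC3. By means alone THUMPD1 KO was higher in 19 of the 22 gamma genes, among them all 12 of type A. Because the genes of a cluster share constant exons and a stretch of chromosome, these counts are not of independent genes.

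In genome order, 6 of the 9 gamma genes from PCDHGA1 to PCDHGA6 were higher in THUMPD1 KO with no overlap. None of the next 9, from PCDHGA7 to PCDHGA11, were, and PCDHGB5 lies among these. PCDHGA12 and PCDHGC3, the next along the chromosome, were higher again. The counts behind the first stretch were small: PCDHGA2 had 3, 0 and 4.6 counts in WT and 9, 6 and 4 in THUMPD1 KO, and PCDHGA3 had 0, 0 and 2 against 5.27, 3 and 3. PCDHGB1 was somewhat higher at 0.224 ± 0.0478 against 0.398 ± 0.123 CPM. The order, and with it where the stretches begin and end, was noticed in the values and was not tested. Over the 31730 genes with a count, 15.8% were higher in THUMPD1 KO with no overlap.

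**Figure D3:**
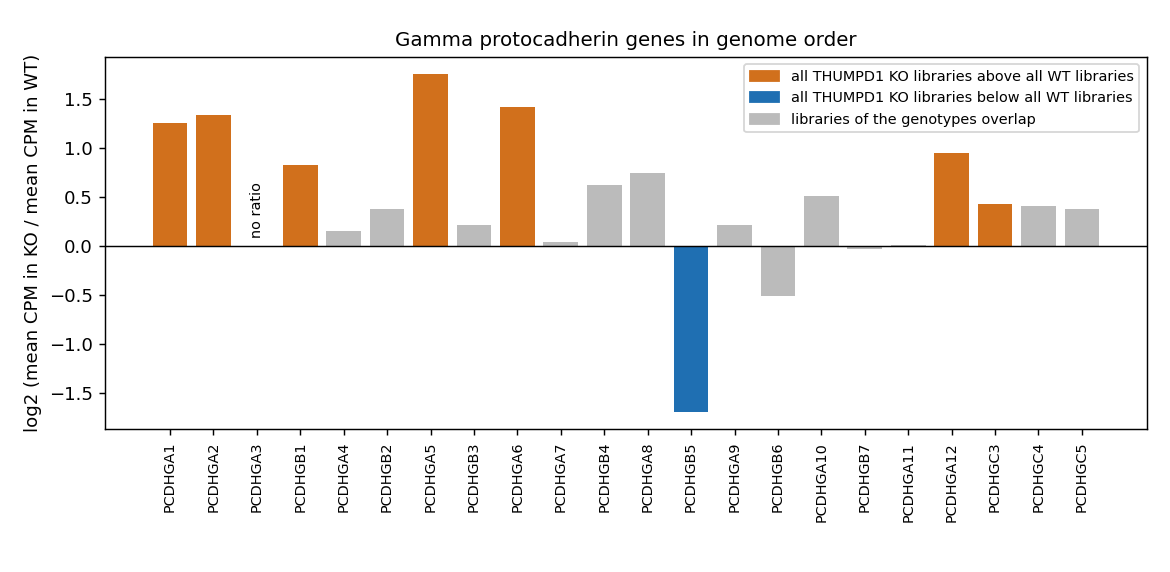
Bars give the log2 ratio of the mean CPM in THUMPD1 KO to that in WT for the gamma genes in genome order, without a model or a test, coloured by whether the libraries of the genotypes overlap. Orange bars (all THUMPD1 KO libraries higher) lie at the left end and at PCDHGA12 and PCDHGC3, the blue bar (all lower) is PCDHGB5, and PCDHGA3 has no bar because it had 2 counts over the WT libraries.

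Summed over genes, the gamma cluster stood at 24.6, 23.0 and 22.7 CPM in WT and 32.5, 28.0 and 28.6 CPM in THUMPD1 KO, means of 23.4 ± 1.02 and 29.7 ± 2.44 and a ratio of 1.27. All THUMPD1 KO libraries were above all WT libraries. The C-type genes went from 13.3 ± 0.947 to 17.95 ± 1.58 CPM and the A-type genes from 7.09 ± 0.179 to 8.86 ± 1.24 CPM, both without overlap. The B-type genes stood at 3.00 ± 0.105 and 2.86 ± 0.318 CPM, with overlap. The alpha cluster summed to 0.513 ± 0.0947 CPM in WT and 0.852 ± 0.350 CPM in THUMPD1 KO, and the beta cluster to 0.814 ± 0.184 and 0.993 ± 0.124 CPM, and in both the genotypes overlapped. No p is given for these sums.

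As a share of the gamma total per kilobase, PCDHGC3 held 49.8%, 48.9% and 47.9% in WT against 53.4%, 52.9% and 49.8% in THUMPD1 KO. The highest WT and the lowest THUMPD1 KO library were nearly equal. PCDHGA11 held 19.0%, 17.5% and 21.6% against 15.8%, 14.0% and 16.4%, a lower share with no overlap although its own CPM were interleaved. The 7 B-type genes together held 11.7%, 13.4% and 13.4% against 8.49%, 9.37% and 11.3%. The other 11 A-type genes held 10.6%, 13.0% and 8.92% against 15.2%, 13.1% and 14.5%. Shares add to 100 in each library, so one cannot move without the others. The same promoters led in both genotypes, with PCDHGC3 ahead of PCDHGA11 and PCDHGA11 ahead of PCDHGC4 in the mean shares of each.

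**Figure D4:**
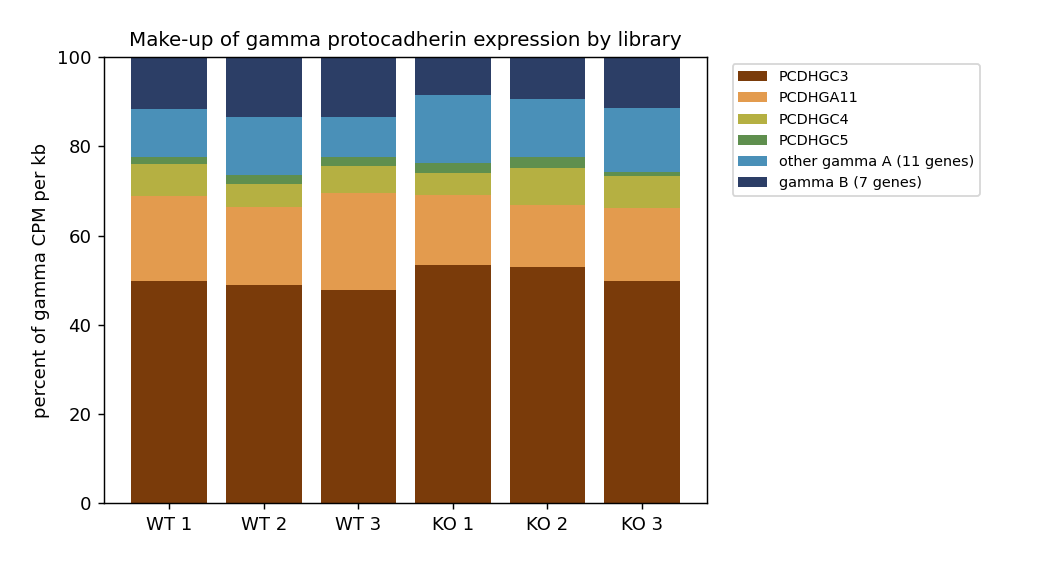
Stacked bars give the make-up of gamma expression in each library, as percent of the summed CPM per kb of transcript. PCDHGC3 fills 47.9% to 53.4% in all 6 libraries, and PCDHGA11 and the B-type genes take a smaller part in the THUMPD1 KO libraries.

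Among the alpha genes PCDHA10 had the highest mean CPM over the 6 libraries, with 8.43, 3.58 and 9.66 counts in WT and 8, 8.48 and 3.55 in THUMPD1 KO. It was the only alpha gene above 3 counts in every library, and its genotypes overlapped. PCDHA11 had 4, 0 and 2 against 11.02, 1 and 6.68 counts, and PCDHA3 had 6, 0 and 1.34 against 3.04, 6 and 1.18. PCDHA1, PCDHA2 and PCDHAC1 exceeded 3 counts in THUMPD1 KO only, in 1 library each, as did PCDHB11 and PCDHGA3, and no member exceeded 3 counts in WT only. PCDHA13 was above WT in each THUMPD1 KO library only once scaled to CPM, with 0, 0 and 1 against 2, 1.73 and 1 counts. At these low counts no alpha gene was called over all genes with a count, by edgeR or by limma-voom with quantile normalization.

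Among the beta genes PCDHB2 led, with 2, 6 and 10.82 counts in WT and 11, 16 and 6 in THUMPD1 KO, and the genotypes overlapped. PCDHB15 had 5, 5 and 3 counts against 9, 9 and 6, or 0.109 ± 0.0251 and 0.207 ± 0.0229 CPM, with no overlap. PCDHB13 had 7, 3 and 8.88 against 3, 4.43 and 2.27 counts. PCDHB16 was lower in each THUMPD1 KO library, with 3, 2 and 3 against 1, 1 and 0 counts, and PCDHB11 higher once scaled to CPM, with 2, 1 and 0 against 2, 5 and 2. None of the beta genes passed in any fit.

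In the rest of the gamma cluster, PCDHGB7 had 33.77, 27.89 and 36.67 counts in WT and 21, 38.27 and 33.44 in THUMPD1 KO. PCDHGA7 had 25, 48.4 and 13.26 against 40.6, 21.93 and 23, and its WT libraries ran from 0.356 to 1.24 CPM. PCDHGB2 had 12.64, 13.09 and 23.77 against 26.19, 13 and 22.1, and PCDHGC5 had 16.16, 18 and 16.51 against 28.12, 29.35 and 9.06. All 4 overlapped between genotypes. PCDHGA12 stood at 0.205 ± 0.0495 and 0.395 ± 0.0319 CPM without overlap.

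Of 24 genes known to act on promoter choice or silencing in these clusters, all were tested and 4 changed, 1 higher and 3 lower in THUMPD1 KO, against the 26.7% of all genes. The median log2 difference of the 24 was 0.02, beside 0.02 for all genes tested. SETDB1, a histone H3 methyltransferase that forms heterochromatin, rose from 60.4 ± 4.39 to 78.7 ± 2.80 CPM (log2 0.37, limma-voom adjusted p = 7.37e-04). TASOR and MPHOSPH8, both subunits of the HUSH silencing complex, fell by 0.21 (limma-voom adjusted p = 0.0056) and 0.20 (adjusted p = 0.0127, but 0.0584 without WT replicate 2) on the log2 scale. STAG2, a cohesin subunit, fell by 0.15 (limma-voom adjusted p = 0.028, up to 0.107 under the alternatives, among them leaving out WT replicate 1 or 3 or THUMPD1 KO replicate 2 or 3). DNMT3B, a DNA methyltransferase that acts on these promoters in early development, stood at 46.8 ± 0.948 and 42.6 ± 1.79 CPM and did not pass (limma-voom adjusted p = 0.0551), but did with the replicate block (0.0303) and with edgeR (0.033). CTCF, with a log2 difference of 0.09, did not pass (limma-voom adjusted p = 0.124), nor did SMCHD1 (0.06, adjusted p = 0.325).

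The non-clustered protocadherins are single genes outside the clusters with no shared constant exons. Of 12 listed, 8 were tested and 6 changed, 4 higher and 2 lower, against the 26.7% of all genes, with a median log2 difference of 0.34 beside 0.02 for all genes tested. PCDH7 fell from 190 ± 3.00 to 114 ± 3.69 CPM (log2 -0.75, limma-voom adjusted p = 9.42e-07). PCDH19, the gene of an X-linked epilepsy, rose from 6.18 ± 1.25 to 13.4 ± 0.992 CPM (log2 1.12, limma-voom adjusted p = 1.13e-04). PCDH10 rose from 39.1 ± 3.20 to 58.5 ± 2.42 CPM (log2 0.59, limma-voom adjusted p = 1.79e-04) and PCDH20 from 10.5 ± 0.345 to 14.6 ± 1.11 CPM (log2 0.48, adjusted p = 0.00114). PCDH18 was called lower and PCDH1 higher, with limma-voom adjusted p of 0.0152 and 0.0292 that reached 0.0568 and 0.105 when a library was left out. PCDH9, the most abundant at 379 ± 26.9 and 411 ± 23.2 CPM, did not pass (limma-voom adjusted p = 0.317), nor did PCDH17 (limma-voom adjusted p = 0.0615), which passed under some alternatives, among them the replicate block (0.0401, lowest 0.0353).

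Of 22 genes for cleavage and signalling partners of the clustered protocadherins, which include the WAVE actin regulators and the kinases PTK2 and PTK2B, all were tested and 8 changed, 4 in each direction, against the 26.7% of all genes called in either direction and 13.7% called higher. PTK2, a focal adhesion kinase that the shared alpha and gamma tails bind and inhibit, rose from 82.8 ± 2.38 to 94.8 ± 0.708 CPM (limma-voom adjusted p = 0.00797). AXIN1, a Wnt pathway scaffold, fell from 50.5 ± 1.08 to 38.4 ± 1.16 CPM (limma-voom adjusted p = 2.42e-04). CYFIP2 and CYFIP1 of the WAVE complex fell by 0.28 (limma-voom adjusted p = 0.00192) and 0.19 (adjusted p = 0.0105) on the log2 scale. PTK2B and NCSTN were also called higher and WASF1 lower, and each lost the call without WT replicate 3 or THUMPD1 KO replicate 2 (highest limma-voom adjusted p 0.17, 0.18 and 0.135 over the alternatives).

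Among 20 genes that flank or lie between the clusters, 18 were tested and 5 changed, 3 higher and 2 lower, a share close to the 26.7% of all genes, with a median log2 difference of 0.04. TAF7, a subunit of the general transcription factor TFIID that lies between the beta and gamma clusters, rose from 71.3 ± 2.13 to 89.0 ± 2.08 CPM (log2 0.32, limma-voom adjusted p = 5.37e-04). HARS2, a mitochondrial histidyl-tRNA synthetase, fell by 0.25 on the log2 scale (limma-voom adjusted p = 0.00778). RNF14 and PCDH1 were the others called higher and TMCO6 the other called lower, and these 3 lost the call without THUMPD1 KO replicate 2 (highest limma-voom adjusted p 0.0542, 0.105 and 0.127 over the alternatives). ARAP3 did not pass (limma-voom adjusted p = 0.0657) but did under some alternatives, among them the replicate block (0.0463, lowest 0.0299). PCDH1 counts in this list and in that of the non-clustered protocadherins.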

How the data were processed

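RNA-seq of 3 WT and 3 THUMPD1 KO HEK-293T libraries was analysed from 1 table of RSEM expected counts deposited by the authors, who aligned paired reads of a stranded kit with STAR to GRCh38 and GENCODE 46. Whether counting used strand is not given in the sources used here. Counts were rounded for DESeq2. The main test took from the study a 1 CPM limit, quantile normalization and limma-voom, with genotype alone, and kept genes reaching that limit in 3 or more libraries (R 4.3.3, limma 3.58.1). P-values were adjusted by Benjamini-Hochberg over all genes tested, with a threshold of 0.05 set here. Alternatives were TMM or total library sizes, other filters, edgeR 4.0.16, DESeq2 1.42.0, a replicate block and leaving out each library. Same-numbered libraries deviated together (correlations 0.287, 0.257 and 0.162 over 11717 genes). The replicate number was therefore fitted as a block in an alternative, and the main test did not pair the libraries. The scripts were tested on simulated data. Positions and transcripts came from GENCODE 44 and promoters from RefSeq. Named genes were the members called in the main or edgeR fits, the 3 highest of each type, those detected in 1 genotype only and, from other lists, those called or lowest in adjusted p. Members and lists were chosen with earlier results of these data known. The values of 1 listed gene are not reported here.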

Additional observations from a re-analysis of the deposited data

How the results depend on the processing

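Of the values recomputed under alternatives, 453 kept their direction and side of the threshold. For counts this meant staying within 1.5 times, and for the summed CPM of a cluster moving by less than the SD. Leaving out 1 library cannot move a mean of 3 by that SD, so those sums were bound to be among the 453. Of the other values, 55 lost and 5 gained a call in the same direction, 19 moved further and 3 changed sign. Without the CPM filter 2 members were called in place of 1. Further settings over all genes with a count were added after seeing the data. In these the members called were 3 with TMM, 4 with total library sizes, 5 with edgeR, 1 with the replicate block and 0 to 1 when 1 library was left out. With total library sizes PCDHGA1 (limma-voom adjusted p = 0.0547) and PCDHGA5 (0.116) did not pass, so the 4 include a member not named as called here. PCDHGC3 itself was lost over all genes with a count without THUMPD1 KO replicate 2 (limma-voom adjusted p = 0.0802) or without any 1 WT library. Leaving out a library gave 2663 to 4245 genes called over all genes tested (main 4025, lowest without THUMPD1 KO replicate 2), and the replicate block gave 5297. The partner genes called numbered 4 to 8 on leaving out a library (4 without WT replicate 3 or THUMPD1 KO replicate 2) and 5 without the filter, and the neighbouring genes 2 to 5 (2 without THUMPD1 KO replicate 2) and 3 without the filter. The log2 difference of PCDHGA11 turned positive with total library sizes (0.00601), without WT replicate 3 (0.0257) and without THUMPD1 KO replicate 2 (0.0467), in a range from -0.107 over the libraries left out. The causes were not tested. Pairing by replicate number changed only the calls given with it above. Depth limits the members: 3 counts are 0.0680 to 0.0931 CPM, and 21 of the 53 genes exceeded 3 in every library.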

Other observations

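Of the 6 pseudogenes left out, the gamma pseudogenes PCDHGB8P and PCDHGB9P were detected at levels above most alpha and beta genes. PCDHGB8P had 18, 8 and 7 counts in WT and 13, 18 and 15 in THUMPD1 KO, and PCDHGB9P had 2, 7 and 4 against 8, 6 and 7. PCDHA14, PCDHB17P, PCDHB18P and PCDHB19P had at most 2 counts in any library.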
